A study of Rattus norvegicus with 12 samples.

Results

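Core circadian clock genes were followed in dorsal root ganglia, the clusters of sensory neurons beside the spinal cord, of single rats given cisplatin with CYM-5478, cisplatin alone, or vehicle. The genes were chosen by name: Arntl (also called Bmal1), Clock, Npas2, Per2, Per3, Cry1, Cry2, Nr1d1, Nr1d2 and Dbp, and the FPKM (sequenced fragments normalised to transcript length and library size) of the transcripts of each gene were summed. Of these 10 genes, 9 were found among the 25252 genes (30275 transcripts) of the table, and Clock is not analysed here. The 12 rats were wild-type Sprague Dawley animals, 4 in each of 3 groups, and the design text calls them biological replicates. One group received intraperitoneal cisplatin, a platinum anticancer drug that damages sensory neurons, on days 0, 7 and 14 at 3 mg/kg each time, together with daily CYM-5478, named in the series title as an activator of the S1P2 receptor, from day -1 to day 20. The dose of CYM-5478 is 0.1 mg/kg in the sample labels and 1 mg/kg in the treatment protocol. The second group received cisplatin at the same dose on the same days, and the third received the vehicle, saline with 0.1% Tween 20 and 1% DMSO. The sources used here give neither the sex and age of the rats nor the day and clock time at which the ganglia were taken.

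The mammalian clock is a transcriptional feedback loop that runs in most cells, neurons and glia included. ARNTL pairs with CLOCK or its relative NPAS2 and binds E-box sequences of the Per, Cry, Nr1d and Dbp genes; PER and CRY proteins accumulate and then inhibit that pair. In a second loop the nuclear receptors NR1D1 and NR1D2 (REV-ERB alpha and beta) repress Arntl, Npas2 and Cry1 at ROR elements, and DBP, TEF and HLF act at D-boxes, where NFIL3 competes with them as a repressor. In tissues with a running clock, Arntl and Npas2 transcripts therefore peak at a different time of day from those of Nr1d1, Dbp and the Per genes.

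The libraries carried the RNA of the labelled tissue: 14 of 14 sensory neuron markers were detected, and their summed FPKM was 5022 to 6241 in the cisplatin with CYM-5478 libraries, 2506 to 4277 in the cisplatin libraries and 4859 to 7021 in the vehicle libraries. The rank correlation between libraries over all genes was 0.963 to 0.987. Summed FPKM per library was 595745 to 626299 with CYM-5478, 640712 to 675894 with cisplatin and 592845 to 608789 with vehicle, and because read counts were not used, sequencing depth is unknown. Libraries are named by group and by the replicate number of the sample descriptions. The sample titles carry another number, from 1 to 6, whose meaning the labels do not give; 4 libraries have title number 5 or 6, namely CYM-5478 replicates 3 and 4, cisplatin replicate 4 and vehicle replicate 4.

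Promoters of 3 members are shown because they hold the elements through which the loops are known to be joined. They run from 250 bases before to 50 bases after the RefSeq start on build GRCr8, 5′ to 3′ on the gene's strand, with matches in capitals. GRCr8 is not the build named for the deposited values (Rnor_6.0), so the positions belong to RefSeq alone. The Arntl promoter (chr1:176766078-176766377, plus strand) holds the ROR element TAGGTCA, whose first base lies 16 bases before the start. The Per2 promoter (chr9:99496944-99497243, minus strand) holds the D-box TTATGTAA, 192 bases before the start, and the E-box variant CACGTT, 62 bases before it. The second of the RefSeq promoters of Nr1d1 (chr10:84229405-84229704, minus strand) holds the E-box CACGTG, 191 bases before the start.
Arntl: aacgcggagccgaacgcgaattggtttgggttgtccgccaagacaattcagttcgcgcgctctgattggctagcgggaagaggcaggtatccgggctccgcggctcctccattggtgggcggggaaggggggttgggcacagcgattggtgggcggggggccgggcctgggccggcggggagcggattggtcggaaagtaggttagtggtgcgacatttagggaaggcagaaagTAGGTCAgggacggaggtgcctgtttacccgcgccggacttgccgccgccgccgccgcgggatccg
Per2: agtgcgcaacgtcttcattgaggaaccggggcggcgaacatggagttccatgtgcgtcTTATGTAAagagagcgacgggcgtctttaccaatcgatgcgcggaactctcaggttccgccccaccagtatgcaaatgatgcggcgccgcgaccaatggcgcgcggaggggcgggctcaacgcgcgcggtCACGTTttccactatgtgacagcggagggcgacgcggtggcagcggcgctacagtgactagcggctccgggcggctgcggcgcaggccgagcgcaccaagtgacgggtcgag
Nr1d1: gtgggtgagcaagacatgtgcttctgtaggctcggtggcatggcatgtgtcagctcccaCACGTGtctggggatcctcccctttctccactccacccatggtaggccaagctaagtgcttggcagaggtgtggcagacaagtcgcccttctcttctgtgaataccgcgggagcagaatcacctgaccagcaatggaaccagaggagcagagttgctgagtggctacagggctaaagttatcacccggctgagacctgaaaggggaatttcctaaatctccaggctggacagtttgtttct
Each motif was searched on both strands, and no match overlapped another. Among 33365 RefSeq rat promoters of this length, 2.63% hold TAGGTCA, 4.84% hold CACGTT, 0.896% hold TTATGTAA and 6.43% hold CACGTG. The E-box variant was also found, on the other strand, in the Cry2 promoter and in the first Nr1d1 promoter. None of the searched motifs, which also included TGGGTCA (4.09% of promoters) and TTACGTAA (0.120%), was found in these windows of Npas2, Per3, Nr1d2 and Dbp. A match describes letters in the window and is no evidence of binding.

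For the clock genes other than Cry1 and Cry2, the SD between rats of the same group exceeded each difference between group means on the log2 scale. In each group the same libraries had low Arntl and Npas2 together with high Nr1d1, Nr1d2, Per3 and Dbp, and 0 of 9 members passed the test between any pair of groups. The libraries concerned were those with title numbers 5 and 6. In whole ganglia, fewer cells of a type and less RNA per cell cannot be told apart, and this holds for each level given here.

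Arntl encodes the obligate partner of the activating pair. It was at 15.3, 12.1, 8.36 and 8.03 FPKM in CYM-5478 replicates 1 to 4, at 15.5, 15.0, 15.2 and 9.27 FPKM in the cisplatin replicates, and at 14.5, 13.5, 12.8 and 6.48 FPKM in the vehicle replicates. The order followed the title numbers: the 8 libraries with title numbers 1 to 4 lay between 12.1 and 15.5 FPKM, and the other 4 lay below all of them, at 6.48 to 9.27 FPKM. Nearly the whole level (97.7%) came from 1 of 2 annotated transcripts. Npas2, which can take the place of CLOCK in the pair, was at 5.79, 5.35, 3.61 and 2.40 FPKM with CYM-5478, at 5.25, 4.91, 6.19 and 3.82 FPKM with cisplatin, and at 4.19, 5.23, 3.92 and 2.05 FPKM with vehicle. Its lowest library in each group was replicate 4, and the 3 groups overlapped.

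Per2 and Per3 encode PER proteins, which with CRY proteins inhibit the activating pair. Per2 was the lowest of the 9 genes on average and was at 1.92, 2.01, 2.96 and 5.29 FPKM with CYM-5478, at 3.20, 2.35, 1.70 and 4.38 FPKM with cisplatin, and at 2.49, 1.64, 1.86 and 6.43 FPKM with vehicle. Replicate 4 was the highest of each group. Per3 was at 8.15, 7.99, 13.6 and 18.8 FPKM with CYM-5478, at 12.3, 11.4, 10.9 and 18.4 FPKM with cisplatin, and at 10.3, 9.61, 10.9 and 21.2 FPKM with vehicle. Here too the highest library of each group was replicate 4, and CYM-5478 replicate 3 came next in its group.

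Cry1 and Cry2 encode the other repressors of the first loop and did not vary alike. Cry1 was at 5.48, 3.67, 3.03 and 3.19 FPKM with CYM-5478, at 5.07, 3.83, 3.42 and 2.61 FPKM with cisplatin, and at 5.80, 4.86, 4.65 and 3.80 FPKM with vehicle. Replicate 1 was its highest library in each group. Cry2 was at 21.3, 20.5, 23.7 and 23.9 FPKM with CYM-5478, at 21.6, 20.2, 20.4 and 19.6 FPKM with cisplatin, and at 23.0, 24.4, 22.6 and 23.3 FPKM with vehicle. The 4 cisplatin libraries lay below the 4 vehicle libraries, as they did in 11.1% of all genes, and replicate 4 did not stand apart.

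Nr1d1 and Nr1d2 encode the repressors of the second loop. Nr1d1 was at 19.6, 26.8, 56.9 and 60.0 FPKM with CYM-5478, at 12.6, 22.6, 40.5 and 77.9 FPKM with cisplatin, and at 12.4, 15.8, 19.6 and 60.7 FPKM with vehicle. Cisplatin replicate 3 held an intermediate level, at which Arntl was as high as in cisplatin replicates 1 and 2. Nr1d2 was at 15.7, 18.9, 30.9 and 35.0 FPKM with CYM-5478, at 16.9, 18.2, 25.3 and 37.9 FPKM with cisplatin, and at 16.3, 17.8, 19.9 and 37.8 FPKM with vehicle. The order of the 4 libraries was the same for both genes in every group.

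Dbp, a D-box activator and a direct output of the activating pair, had the widest spread of the 9 genes. It was at 9.11, 10.5, 38.1 and 53.9 FPKM with CYM-5478, at 10.6, 15.2, 15.1 and 51.2 FPKM with cisplatin, and at 10.9, 10.4, 12.5 and 60.8 FPKM with vehicle. The levels fell into 2 clusters, 8 libraries at 9.11 to 15.2 FPKM and 4 at 38.1 to 60.8 FPKM, with a gap of 49.0% of the whole log2 range between them; the largest gap of the other members was 22.2% to 37.0% of their range. The ratio of Dbp to Arntl was 0.595, 0.864, 4.56 and 6.71 with CYM-5478, 0.687, 1.01, 0.999 and 5.52 with cisplatin, and 0.749, 0.770, 0.975 and 9.38 with vehicle. It was highest in replicate 4 of each group, and CYM-5478 replicate 3 was the remaining library in which Dbp exceeded Arntl several-fold.

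**Figure D1:**
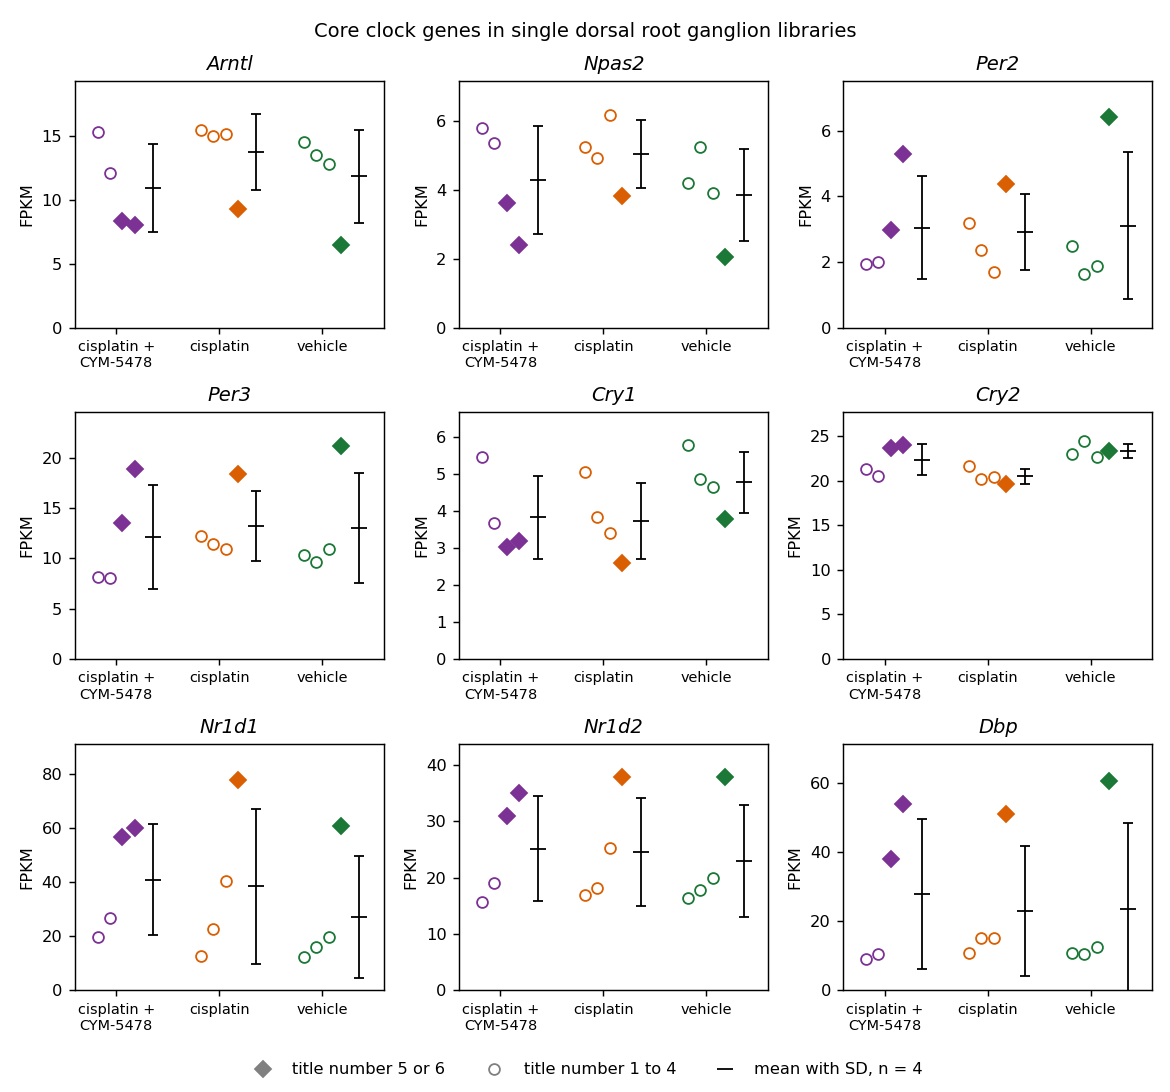
FPKM of the 9 clock genes (linear vertical axes from 0) in each library of the 3 groups, replicates 1 to 4 from left to right, with the mean and SD of each group at the right of its points (the SD of Dbp in the vehicle group reaches below 0 and is cut there). Filled diamonds mark libraries with title numbers 5 or 6, in which Arntl lies at 6.48 to 9.27 FPKM and Dbp at 38.1 to 60.8 FPKM.

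On the FPKM scale, which is per length of transcript, the order of mean levels in the vehicle group was Nr1d1 (27.1 ± 22.6), Dbp (23.7 ± 24.8), Cry2 (23.3 ± 0.792), Nr1d2 (22.9 ± 10.0), Per3 (13.0 ± 5.48), Arntl (11.8 ± 3.64), Cry1 (4.78 ± 0.822), Npas2 (3.85 ± 1.33) and Per2 (3.11 ± 2.24; SD, n = 4 each). Between neighbours in this order, the step from Arntl to Cry1 was the one larger than the SD of both genes. The mean Arntl level was 10.9 ± 3.44 FPKM with CYM-5478, 13.7 ± 2.98 FPKM with cisplatin and 11.8 ± 3.64 FPKM with vehicle, and that of Nr1d1 was 40.8 ± 20.6, 38.4 ± 28.8 and 27.1 ± 22.6 FPKM in the same groups (SD, n = 4 each). Title numbers 5 and 6 belong to replicates 3 and 4 in the CYM-5478 group but to replicate 4 alone in the others. These means, and the main group differences given below, do not separate that imbalance from treatment.

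The spread within groups was set against that of the other genes by the residual SD of log2(FPKM + 0.5) after removal of the group means. The median over the 16761 genes tested was 0.151. Dbp (1.15) lay at the 99.1 percentile, Nr1d1 (0.976) at the 98.7, Per2 (0.627) at the 96.7, Nr1d2 (0.537) at the 95.5, Per3 (0.487) at the 94.4, Npas2 (0.439) at the 93.0, Arntl (0.430) at the 92.7 and Cry1 (0.309) at the 85.4 percentile. Cry2 (0.0764) was at the 12.2 percentile, so the 2 cryptochrome genes stood on opposite sides of the median. These percentiles describe the 12 libraries and are not a test.

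The title numbers separated the libraries in 6 of the 9 members. In the 4 libraries with title numbers 5 and 6, against the 8 with 1 to 4, Arntl (6.48 to 9.27 against 12.1 to 15.5 FPKM) and Npas2 (2.05 to 3.82 against 3.92 to 6.19 FPKM) lay lower with no overlap. Per3 (13.6 to 21.2 against 7.99 to 12.3 FPKM), Nr1d1 (56.9 to 77.9 against 12.4 to 40.5 FPKM), Nr1d2 (30.9 to 37.9 against 15.7 to 25.3 FPKM) and Dbp lay higher with no overlap. Per2 (2.96 to 6.43 against 1.64 to 3.20 FPKM), Cry1 (2.61 to 3.80 against 3.42 to 5.80 FPKM) and Cry2 (19.6 to 23.9 against 20.2 to 24.4 FPKM) overlapped. Of all 16761 genes, 65 (0.388%) had such a separation, 30 of them higher and 35 lower in the libraries with title numbers 5 and 6. The split was noticed from Dbp and is given as a description with no test. Both title numbers 5 and 6 occur among CYM-5478 rats, 5 in the vehicle group and 6 in the cisplatin group, so the split cannot be told apart from other features of these 4 rats.

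Of 47 other genes of the clock pathway that were tested, 5 were separated by title number in the same way. Nfil3, the repressor at D-boxes, was at 6.84, 7.33, 3.35 and 3.60 FPKM with CYM-5478, at 7.37, 6.38, 5.73 and 3.18 FPKM with cisplatin, and at 5.57, 4.80, 4.65 and 2.46 FPKM with vehicle. Tef, a D-box activator related to Dbp, was at 18.7, 16.6, 26.3 and 34.9 FPKM with CYM-5478, at 20.8, 19.1, 18.3 and 29.1 FPKM with cisplatin, and at 18.7, 18.8, 19.0 and 34.3 FPKM with vehicle. Nfil3 was low and Tef was high in the same 4 libraries. Bhlhe40 (25.7 to 32.9 against 11.2 to 22.4 FPKM) and Bhlhe41 (9.73 to 11.2 against 5.71 to 9.61 FPKM), E-box repressors, and Ciart (1.74 to 3.35 against 0.448 to 1.30 FPKM), a repressor of the activating pair, were higher in the libraries with title numbers 5 and 6. Hlf, the third D-box activator, overlapped narrowly, at 7.86 to 13.1 FPKM against 3.58 to 7.93 FPKM.

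**Figure D2:**
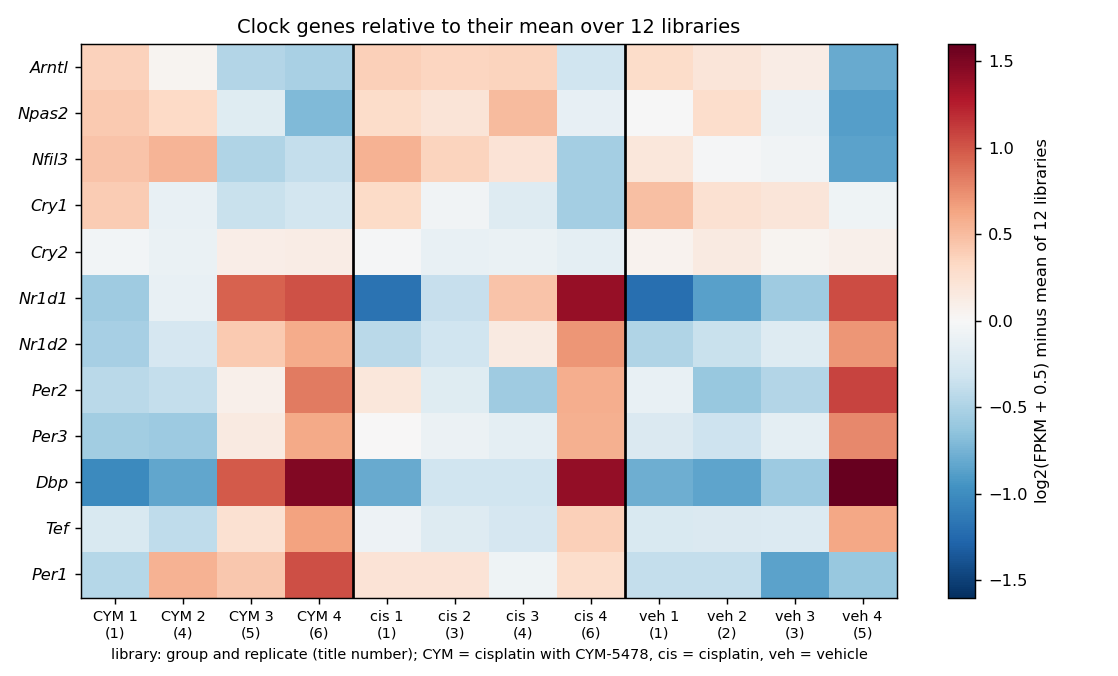
Level of the 9 clock genes with Nfil3, Tef and Per1 in each library (columns, title number in parentheses), as log2(FPKM + 0.5) minus the gene's mean over the 12 libraries. In CYM-5478 replicates 3 and 4, cisplatin replicate 4 and vehicle replicate 4, Arntl, Npas2 and Nfil3 are below their means, and Nr1d1, Nr1d2, Per2, Per3, Dbp and Tef are above theirs.

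Phase relations were examined in each pair of members after the group means of log2(FPKM + 0.5) were removed, with two-sided exact permutation of libraries within groups (13824 permutations) and Benjamini-Hochberg adjustment over 36 pairs. The adjusted p was under 0.05 for 26 pairs, 12 with positive and 14 with negative r, and the unadjusted p for 27. By rank correlation 23 pairs passed. Of the 21 pairs without a Cry gene 20 passed, of the pairs with Cry1 6 passed, and none with Cry2 did. Because Dbp fell into separate clusters, no r over 12 libraries after removal of the group means is given for its 8 pairs, of which 7 are in the count. Some r of Dbp without that removal are given further on, as description with no test. Of the 28 pairs without Dbp, 19 passed. Arntl, Npas2, Per3, Nr1d1 and Nr1d2 were also separated without overlap by the 4 libraries with title numbers 5 and 6. The pairs among them share that contrast, so their r are not independent of each other.

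The activators Arntl and Npas2 ran together over the 12 libraries (Pearson r = 0.91, exact permutation p = 0.00123, adjusted p = 0.00341; Spearman rho = 0.88, p = 0.00297), and r was 0.84 without the 2 libraries farthest from the median of Arntl. Those 2 were vehicle replicate 4 and CYM-5478 replicate 4, with title numbers 5 and 6. CYM-5478 replicate 3 and cisplatin replicate 4, with the same title numbers, were kept. Leaving out the farthest 2 therefore cannot show how much of an r rests on that split. Arntl ran opposite to the second loop: r was -0.91 with Nr1d1 (exact permutation p = 0.000217, adjusted p = 0.0013; rho = -0.94, p = 0.000362) and -0.96 with Nr1d2 (same exact p; rho = -0.89, p = 0.000506). Without the 2 farthest libraries these were -0.85 and -0.92. Opposite to Arntl were also Per3 (r = -0.94, exact permutation p = 0.00275, adjusted p = 0.00618; rho = -0.83, p = 0.00687) and Per2 (r = -0.87, exact permutation p = 0.00629, adjusted p = 0.0108; rho = -0.67, p = 0.0375), at -0.93 and -0.69 without the farthest libraries. The call for Arntl with Per2 was lost when vehicle replicate 4 was left out (r = -0.76, exact permutation adjusted p = 0.0789). Cry1, a repressor by function, ran with Arntl (r = 0.84, exact permutation p = 0.000362, adjusted p = 0.00145; rho = 0.88, p = 0.000579) and opposite to Nr1d1 (r = -0.92, exact permutation p = 0.000145, adjusted p = 0.0013; rho = -0.94, p = 0.000145).

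Within the repressor arms, Nr1d1 and Nr1d2 had the highest r of the 28 pairs (r = 0.98, exact permutation p = 7.23e-05, the smallest possible; adjusted p = 0.0013; rho = 0.97). Per2 and Per3 also ran together (r = 0.94, exact permutation p = 0.000579, adjusted p = 0.00189; rho = 0.83, p = 0.00326). Npas2 ran opposite to Per3 (r = -0.97, exact permutation p = 0.000434, adjusted p = 0.00156; rho = -0.95, p = 0.000651). Cry2 with Arntl had r = -0.29 (exact permutation p = 0.377, adjusted p = 0.411; rho = -0.32, p = 0.371).

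Several of these r were nearer 0 or changed sign without the 4 libraries with title numbers 5 and 6. In the 8 libraries with title numbers 1 to 4 (72 permutations, which allow no p below 0.0139), 0 of 36 pairs had an adjusted exact permutation p under 0.05. A pair could pass only if many pairs reached the smallest p together, so this 0 does not show that relations were absent. An unadjusted exact permutation p under 0.05 was found for 5 pairs. Of the 26 pairs, 15 kept their sign and 11 turned in these 8 libraries. There r was 0.24 for Arntl with Npas2 (exact permutation p = 0.431), 0.19 with Per2 (p = 0.431), 0.02 with Per3 (p = 0.944) and -0.43 with Nr1d1 (p = 0.0417). Per2 with Nr1d1, which had r = 0.66 over 12 libraries (exact permutation p = 0.0413, adjusted p = 0.0551; rho = 0.52, p = 0.127; r = 0.33 without the 2 libraries farthest from the median of Per2), had r = -0.88 in the 8 (exact permutation p = 0.0972). Of the 6 pairs with Cry1, 2 turned: r was -0.11 for Npas2 with Cry1 (0.64 over 12 libraries; exact permutation p = 0.792 in the 8) and 0.47 for Per3 with Cry1 (-0.69 over 12; p = 0.25 in the 8). The r of 0.80 for Arntl with Cry1 (exact permutation p = 0.0417) and of -0.86 for Cry1 with Nr1d1 (p = 0.0139) had the sign found over 12 libraries. In the second loop, r was 0.94 for Nr1d1 with Nr1d2 (exact permutation p = 0.0278), whereas Nr1d1 turned with Npas2 (0.30, p = 0.597; -0.76 over 12) and with Per3 (-0.52, p = 0.278; 0.82 over 12). For Dbp in these libraries r was -0.47 with Arntl (exact permutation p = 0.0972), 0.85 with Nr1d1 (p = 0.111) and -0.84 with Cry2 (p = 0.0139). The cluster of 4 libraries is too small for an r of its own.

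**Figure D3:**
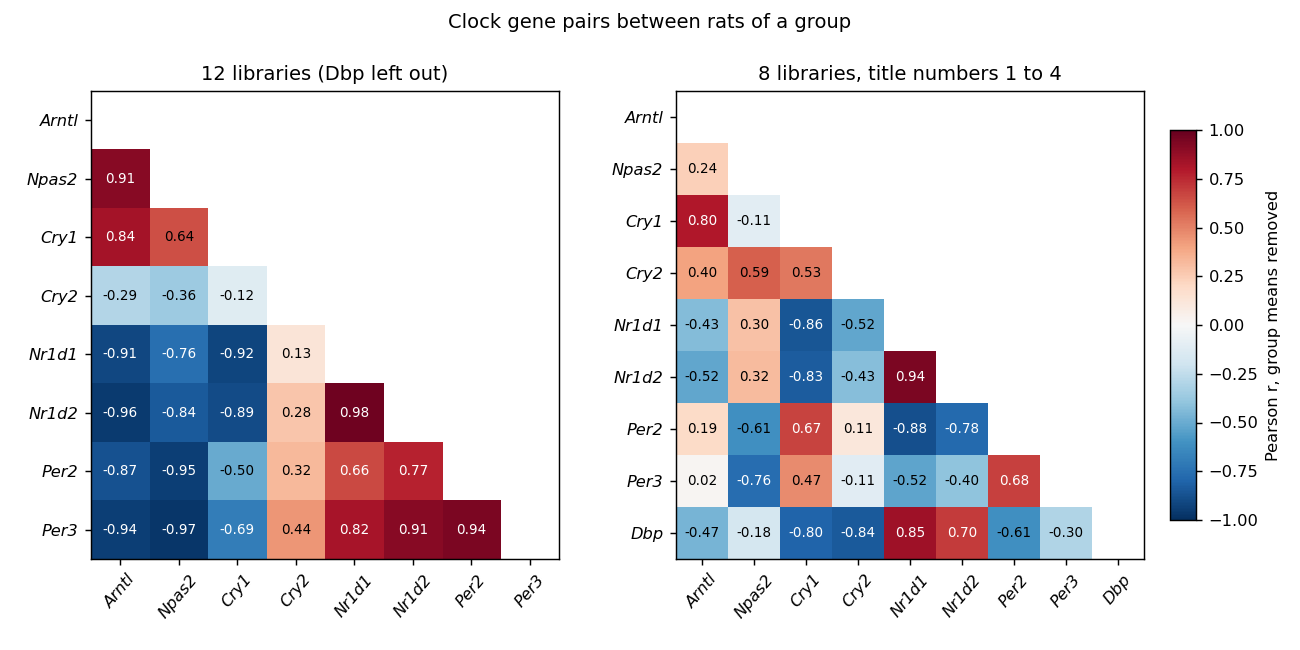
Pearson r of log2(FPKM + 0.5) with group means removed for each pair of clock genes, over 12 libraries without Dbp (left) and over the 8 libraries with title numbers 1 to 4 (right). Arntl with Per3 is -0.94 at the left and 0.02 at the right, whereas Nr1d1 with Nr1d2 is 0.98 and 0.94.

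**Figure D4:**
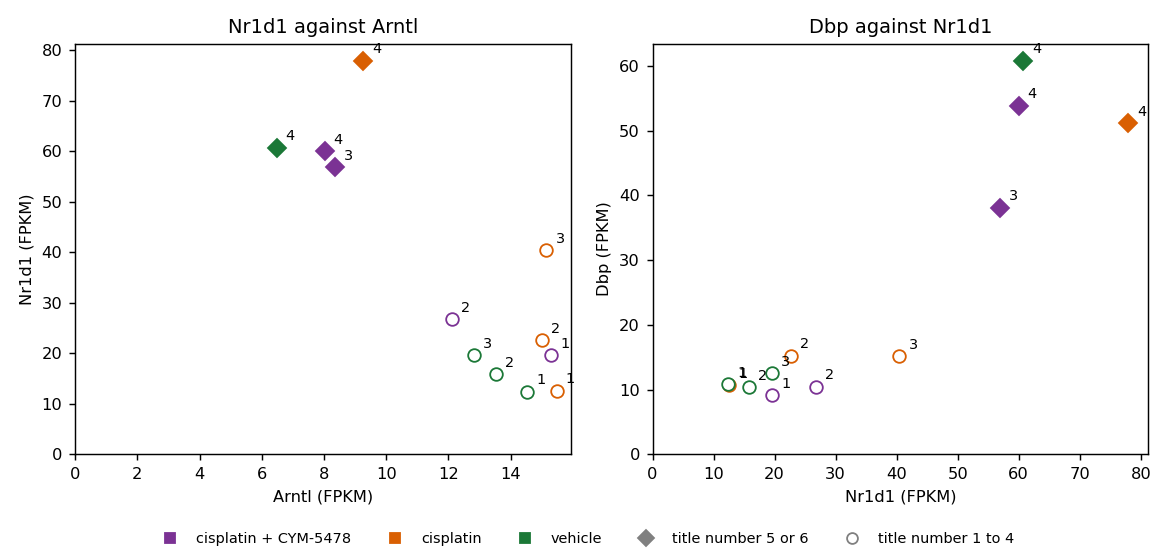
Nr1d1 against Arntl (left) and Dbp against Nr1d1 (right) in FPKM for each library, labelled with its replicate number, on linear axes from 0. The 4 libraries with title numbers 5 or 6 (filled) lie apart, and cisplatin replicate 3 combines 40.5 FPKM of Nr1d1 with 15.2 FPKM of Arntl and 15.1 FPKM of Dbp.

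Which genes of the whole table followed the clock genes was described by Pearson r of log2(FPKM + 0.5) over the 12 libraries, among 15329 other genes whose mean was at least 1 FPKM. The gene most like Arntl was Nfil3 (r = 0.90), and Npas2 was next (r = 0.89). At the opposite end the lowest r with Arntl was that of Dbp (-0.92), followed by Tef (-0.90) and Nr1d2 (-0.89); Per3 was 6th, Per2 7th and Nr1d1 11th from that end. Outside the clock pathway, Tceanc2 (r = 0.85), Tmprss13 (r = 0.85), Bend3 (r = 0.84) and Gsta1 (r = 0.83), a glutathione transferase, were the named genes most like Arntl. Gsta1 ranged between 34.5 and 64.1 FPKM and Tmprss13 between 0.778 and 4.87 FPKM.

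For Dbp the leading gene was Nr1d2 (r = 0.97), followed by Tef (0.95), Per3 (0.94), Por (0.92), which encodes the reductase that supplies electrons to cytochromes P450, and Nr1d1 (0.90). Chd4 (0.88), Clec11a (0.85) and Tnks1bp1 (0.85) were the other named genes. Por was at 34.4, 36.2, 40.8 and 42.8 FPKM with CYM-5478, at 38.4, 37.9, 39.9 and 45.7 FPKM with cisplatin, and at 33.7, 33.7, 35.1 and 46.3 FPKM with vehicle, again highest in replicate 4 of each group. For Per2 the leading gene was Tef (r = 0.93), followed by Per3 (0.92), and the named genes included Herpud1 (0.88), Angptl2 (0.87), Ciart (0.86) and Wee1 (0.86), a kinase that delays entry into mitosis. All these r rest on the same 12 libraries, 4 of which stood apart, and no test is attached to them.

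Group differences were tested with limma on log2(FPKM + 0.5) over all 16761 genes, with Benjamini-Hochberg adjustment. The 3 comparisons share libraries with each other, so their values stand side by side without a comparison between them. For CYM-5478 against cisplatin, 0 of 9 members passed an adjusted p of 0.05, against 5.58% of all genes, and 1 had an unadjusted p under 0.05, as did 24.6% of all genes. The 5.58% fell to 0 without cisplatin replicate 1 or 4, without CYM-5478 replicate 2, 3 or 4, or without vehicle replicate 1. For CYM-5478 against vehicle, 0 of 9 passed, against 0% of all genes, and 0 had an unadjusted p under 0.05, as did 5.79% of all genes. For cisplatin against vehicle, 0 of 9 passed, against 10.7% of all genes, and 1 had an unadjusted p under 0.05, as did 28.4% of all genes. The median log2 difference of the members was 0.04, 0.06 and 0.10 in these comparisons, and that of all genes was -0.02, -0.00 and 0.02.

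Cry2 came nearest to the threshold. It averaged 20.5 ± 0.855 FPKM with cisplatin and 23.3 ± 0.792 FPKM with vehicle (SD, n = 4 each), a log2 difference of -0.19 (SE 0.0588, 95% interval -0.32 to -0.06) with a limma adjusted p of 0.0582. It was the 1 member whose cisplatin libraries did not overlap the vehicle libraries, which was true of 18.4% of all genes. With CYM-5478 it averaged 22.3 ± 1.73 FPKM, a log2 difference of 0.13 from cisplatin (SE 0.0588, limma adjusted p = 0.193) and of -0.06 from vehicle (SE 0.0588, limma adjusted p = 0.976), with overlap in both comparisons (16.3% and 3.5% of all genes did not overlap). The cisplatin difference passed without CYM-5478 replicate 2 (-0.19, limma adjusted p = 0.0497) and on the TPM scale (-0.31, adjusted p = 0.0103), as did CYM-5478 against cisplatin on that scale (0.24, adjusted p = 0.0423). Of all genes, 1510 of 16739 passed for cisplatin against vehicle without CYM-5478 replicate 2. On the TPM scale 3274 of all 17586 genes passed for cisplatin against vehicle and 2545 for CYM-5478 against cisplatin. TPM also moved the median log2 difference of all genes to -0.09 for cisplatin against vehicle and to 0.08 for CYM-5478 against cisplatin. In other settings Cry2 was further from passing for cisplatin against vehicle. It was -0.14 with title numbers as a replicate block (limma adjusted p = 0.465) and -0.17 with title numbers 1 to 4 alone (adjusted p = 0.177). Without vehicle replicate 2 it was -0.17 (limma adjusted p = 0.159). Hardly any or none of all genes passed in these settings.

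Markers of the cells of the ganglion were compared between the same groups, and no list passed after adjustment. With 4 libraries against 4, a list could pass only if many others also reached the smallest possible p. The outcome therefore does not show that the groups were alike in these markers. The mean log2 score of the 14 sensory neuron markers relative to vehicle was -0.67 ± 0.29 with cisplatin and -0.05 ± 0.18 with CYM-5478 (SD, n = 4 each); the exact permutation p was 0.0286 for cisplatin against vehicle, the smallest that 4 against 4 allows, and 0.223 after adjustment over 39 list comparisons. The 6 fibroblast markers summed to 3358 to 3607 FPKM with CYM-5478, 4237 to 5058 FPKM with cisplatin and 3031 to 3842 FPKM with vehicle, and the 6 satellite glia markers to 2126 to 2624, 2106 to 2390 and 2318 to 2403 FPKM in the same order of groups. The exact permutation p was also 0.0286 for the neuron markers in CYM-5478 against cisplatin. It was 0.0286 for the fibroblast markers in both comparisons with the cisplatin group, and each of these was 0.223 after adjustment. For the satellite glia markers it was 0.286 in both comparisons with the cisplatin group. No marker of these 3 lists was at 0 in all libraries. Their part in the Cry2 values was not tested.

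The other members had wide intervals. The log2 difference of Nr1d1 was 0.25 for CYM-5478 against cisplatin (95% interval -1.07 to 1.57), 0.72 for CYM-5478 against vehicle (-0.60 to 2.04) and 0.47 for cisplatin against vehicle (-0.85 to 1.79). The last of these was 0.027 without cisplatin replicate 4 and 0.95 without vehicle replicate 4, and CYM-5478 against vehicle was 1.21 without vehicle replicate 4. The log2 difference of Dbp was 0.17 (-1.39 to 1.73), 0.29 (-1.27 to 1.85) and 0.12 (-1.44 to 1.68) in the same comparisons. These intervals span differences of more than 1 log2 unit in either direction for Dbp, so the data do not show that the groups were alike. The log2 difference of Arntl was -0.32 (-0.91 to 0.26), -0.09 (-0.68 to 0.50) and 0.23 (-0.36 to 0.82), and that of Cry1 was 0.05 (-0.39 to 0.48), -0.30 (-0.73 to 0.14) and -0.34 (-0.78 to 0.09). The limma adjusted p of the members other than Cry2 was at least 0.285 for cisplatin against vehicle and that of all 9 was at least 0.933 for CYM-5478 against vehicle.

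**Figure D5:**
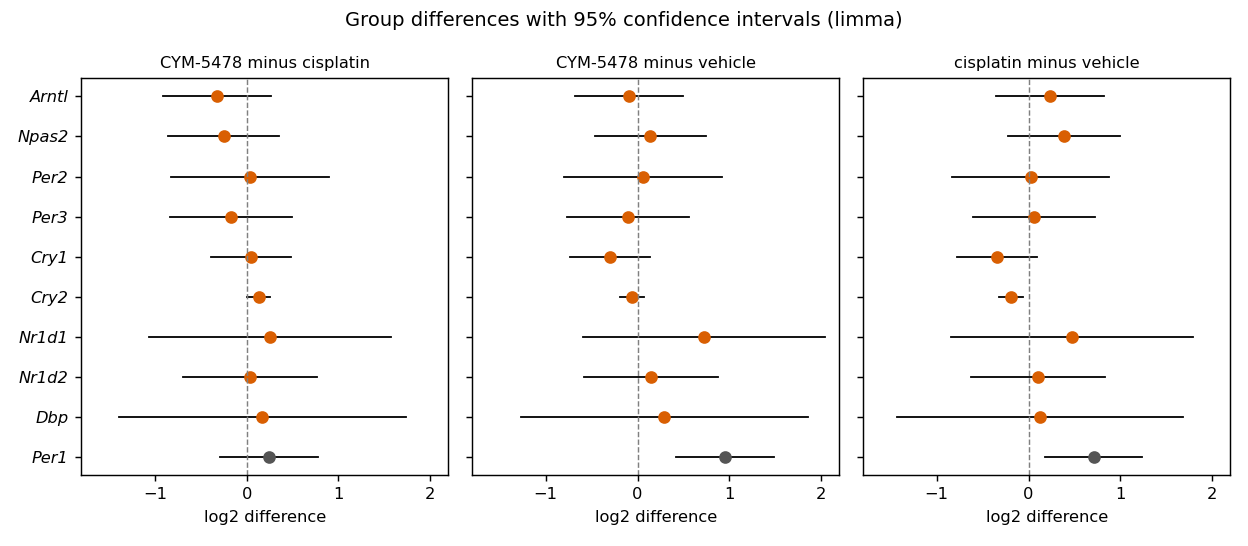
Differences of log2(FPKM + 0.5) between groups with 95% confidence intervals from limma for the 9 clock genes (orange) and Per1 (grey), 1 panel for each comparison. The intervals of Dbp and Nr1d1 span 0 widely in the 3 panels, and that of Cry2 for cisplatin minus vehicle runs from -0.32 to -0.06.

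Per1 encodes a further PER protein and is also a glucocorticoid target. It was at 15.7, 32.1, 29.5 and 44.7 FPKM with CYM-5478, at 25.2, 25.2, 20.6 and 26.4 FPKM with cisplatin, and at 16.6, 16.5, 11.8 and 14.0 FPKM with vehicle. Replicate 4 was its highest library with CYM-5478 and with cisplatin, as for Per2 and Per3, but not with vehicle, where replicate 1 was. The 4 cisplatin libraries lay above the 4 vehicle libraries, as they did in 7.33% of all genes, and CYM-5478 replicate 1 lay among the vehicle libraries. The log2 difference was 0.24 for CYM-5478 against cisplatin (SE 0.243, limma adjusted p = 0.579), 0.95 for CYM-5478 against vehicle (SE 0.243, unadjusted p = 0.00215, adjusted p = 0.694) and 0.71 for cisplatin against vehicle (SE 0.243, unadjusted p = 0.0132, adjusted p = 0.0808), so Per1 did not pass in any comparison. The 19 tested genes of a list of 20 glucocorticoid-responsive genes, Per1 among them, had a mean log2 score relative to vehicle of 0.40 with cisplatin (exact permutation p = 0.0286, adjusted p = 0.223) and 0.33 with CYM-5478 (exact permutation p = 0.0857). The 18 tested genes of a list of 20 immediate early genes had a score of 0.10 with cisplatin (exact permutation p = 0.486). Their part in the Per1 values was not tested.

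Of the 47 other clock pathway genes tested, 0 were higher and 3 lower with limma's adjusted p under 0.05 for cisplatin against vehicle, 44 did not pass, and the median log2 difference was 0.06. Over all genes, 2.73% were called higher and 7.98% lower, so the share of lower calls among these genes was not above that of all genes. For this comparison 0 of all genes passed without cisplatin replicate 4, with title numbers 1 to 4 alone or with title numbers as a replicate block. The calls given next are therefore lost in these settings. Without vehicle replicate 2, 3 of all 16745 genes passed. Csnk1d, the casein kinase 1 delta that phosphorylates PER, was at 47.8, 53.0, 49.7 and 48.1 FPKM with cisplatin and at 56.1, 60.6, 54.5 and 57.1 FPKM with vehicle, a log2 difference of -0.21 (SE 0.0481, limma adjusted p = 0.0246). Btrc, the F-box protein that recognises phosphorylated PER, was at 14.2, 16.7, 17.0 and 17.0 FPKM with cisplatin and at 19.3, 21.6, 19.8 and 19.7 FPKM with vehicle (-0.31, SE 0.0742, limma adjusted p = 0.0276). Skp1, the adaptor of that ligase, was at 213, 237, 236 and 229.8 FPKM with cisplatin and at 257, 284, 273 and 254 FPKM with vehicle (-0.23, SE 0.056, limma adjusted p = 0.0286). The cisplatin libraries lay below the vehicle libraries in each of these 3 genes, as they did in 11.1% of all genes. Csnk1e (log2 difference -0.0039, limma adjusted p = 0.982) and Fbxw11 (-0.071, adjusted p = 0.413), relatives of Csnk1d and Btrc, did not pass. Cul1 (-0.011, limma adjusted p = 0.892), a partner of Skp1 in the ligase, did not pass either. These 3 genes were named here after their values were seen. With CYM-5478, Csnk1d ranged between 52.2 and 55.6 FPKM, Btrc between 17.8 and 20.9 FPKM and Skp1 between 253 and 274 FPKM. For CYM-5478 against cisplatin 0 of 47 passed (5.58% of all genes) and 7 had an unadjusted limma p under 0.05 (24.6% of all genes). Btrc (0.27, limma adjusted p = 0.0558) and Skp1 (0.20, limma adjusted p = 0.057) were nearest. For CYM-5478 against vehicle 0 of 47 passed (0% of all genes) and 4 had an unadjusted limma p under 0.05 (5.79% of all genes).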

How the data were processed

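Dorsal root ganglion RNA of 12 rats was profiled, 4 in each of 3 groups taken from the sample descriptions. Per the labels' protocols, ribosomal RNA was removed before directional libraries were prepared. A single table, deposited by the authors, gives FPKM for each transcript in each sample; the submitters' processing notes name STAR 2.7.8a, Bowtie2 2.0.6, DESeq2, FastQC, bcl2fastq 2.20 and the build Rnor_6.0, without a role. The program that gave the FPKM and its filters are not given in the sources used here. The table as used is smaller than its listed size, some genes are not analysed here, and no interval for counting error is given because depth is unknown.

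FPKM were summed by gene and divided by size factors (median of ratios to the geometric mean, from genes averaging at least 1 FPKM; 0.9983 to 1.012); levels in the text are unscaled. On log2(FPKM + 0.5), limma 3.58.1 (R 4.3.3; variance trend, 3 groups, 9 residual degrees of freedom) was run over the 16761 genes averaging at least 0.5 FPKM, and p-values were adjusted by the Benjamini-Hochberg method. A fold change on this scale understates that of low genes. Pair correlations and marker scores used two-sided exact permutation (Python 3.11.15, NumPy 2.4.6). The workflow was tested on simulated data. Of the marker lists, 1 red blood cell symbol found no match; 3 of 49 other clock genes matched by synonym.

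The members and lists were chosen with earlier results of these data known. Named genes were the members, Per1, the other clock genes past the threshold or, under 4 of these, the 4 of smallest p in a comparison, and for Arntl, Per2 and Dbp the 5 non-member genes of highest r. Of these, Tipin and Cipc are not described, and no group differences are given for Gskip, Ncor1, Ppp5c and Sirt1. Bhlhe40, Bhlhe41, Hlf, Csnk1e, Cul1, Fbxw11, Cdkn1a and Errfi1 were named outside this rule. Alternatives were other pseudocounts (0.1 and 1), filters (none and 2 FPKM), no scaling, TPM, quantile normalization, single transcripts, array weights, robust variances, 8-library fits, a block for the replicate number, and leaving out each library. Leaving out title numbers 5 and 6 was chosen after seeing the data. Promoter sequences are from RefSeq (GRCr8): 8 of the 9 measured members had an entry.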

Additional observations from a re-analysis of the deposited data

Results flagged for a closer look

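Values far from the other 3 libraries of their group (gap over range above 0.829) were looked for in 99 groups of 4 libraries, and 16 were found. Chance gives about 1 in 20 such groups when they are independent. These are not, since several of the genes were named for a high r with Arntl, Per2 or Dbp over the same libraries, so the count is not read against that rate.

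Vehicle replicate 4 stood apart in 8 genes, and in each it was the highest library of its group: Per3 at 21.2 FPKM (the others at 9.61 to 10.9), Nr1d1 at 60.7 FPKM (12.4 to 19.6), Nr1d2 at 37.8 FPKM (16.3 to 19.9), Dbp at 60.8 FPKM (10.4 to 12.5), Tef at 34.3 FPKM (18.7 to 19.0), Ciart at 2.55 FPKM (0.448 to 0.640), Por at 46.3 FPKM (33.7 to 35.1) and Clec11a at 13.2 FPKM (8.49 to 8.83). Cisplatin replicate 4 stood apart with low Arntl, 9.27 FPKM against 15.0 to 15.5 FPKM in the other 3, and with high Dbp, 51.2 FPKM against 10.6 to 15.2 FPKM. In the CYM-5478 group no clock member was found this way; there 2 libraries had high Dbp.

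The remaining values concern other clock pathway genes. Btrc was at 14.2 FPKM in cisplatin replicate 1 (the others at 16.7 to 17.0). Cisplatin replicate 3 was low in Gskip, 19.9 FPKM (21.7 to 21.9), and in Sirt1, 14.1 FPKM (15.6 to 15.7). Vehicle replicate 2 was low in Ncor1, 55.3 FPKM (61.7 to 62.8), and high in Ppp5c, 36.1 FPKM (31.8 to 32.2), and CYM-5478 replicate 1 was low in Ppp5c, 31.1 FPKM (37.0 to 38.1).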

How the results depend on the processing

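The count of 0 members past the threshold held under the alternatives run for CYM-5478 against vehicle. There 0 of all genes passed in the main fit and at most 2 in an alternative, so that count is no result about the members. The member count was 1 (Cry2) on the TPM scale for cisplatin against vehicle and for CYM-5478 against cisplatin. On that scale 3274 and 2545 of all 17586 genes tested passed in these comparisons. Over the left-out libraries the count ranged from 0 to 1 for cisplatin against vehicle. The 1 arose without CYM-5478 replicate 2, where 1510 of all 16739 genes passed. In both comparisons with the cisplatin group, 0 of all genes passed without cisplatin replicate 4, with title numbers 1 to 4 alone or with title numbers as a replicate block. For CYM-5478 against cisplatin, 0 of all genes also passed in the 8-library fit and without cisplatin replicate 1 or vehicle replicate 1. The same held without CYM-5478 replicate 2, 3 or 4, and with no filter 2 of 21375 genes passed. A count of 0 members in these settings is no result about the members. The 26 pairs past the threshold ranged from 18 (without vehicle replicate 4) to 27 over the left-out libraries. They were 12 with the description numbers as a replicate block, which removes the mean of replicate 4 and so most of the contrast between title numbers. In the 8 libraries with title numbers 1 to 4 they were 0, where 72 permutations left hardly any way to pass. There r turned to 0.19 for Arntl with Per2 and to 0.022 for Arntl with Per3. Same-numbered libraries of different groups had correlations of residuals of -0.24 to 0.15, over 0.1 in 1 of 12, so the description numbers were not taken to pair the rats; the replicate block changed no call of a member.

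The differences that changed sign had not passed the test. Directions given are CYM-5478 minus cisplatin first, then CYM-5478 minus vehicle, then cisplatin minus vehicle, in log2 units. With title numbers as a replicate block, in the first comparison Per2 was -0.22, Nr1d1 -0.13, Nr1d2 -0.19 and Dbp -0.31; in the second Arntl was 0.14, Per2 -0.33, Nr1d2 -0.22 and Dbp -0.33; in the last Per2 was -0.11, Per3 -0.0061, Nr1d2 -0.027 and Dbp -0.019. With title numbers 1 to 4 alone, in the first Npas2 was 0.042, Per2 -0.20, Nr1d2 -0.19 and Dbp -0.44, and in the second Arntl was 0.0030, Per2 -0.0010, Nr1d2 -0.051 and Dbp -0.19. For cisplatin minus vehicle, Per2 was -0.13 with array weights, and on the TPM scale Per2 was -0.080, Per3 -0.054 and Nr1d2 -0.017.

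Over the left-out libraries, CYM-5478 minus cisplatin ranged from -0.23 to 0.23 for Per2, -0.40 to 0.0023 for Per3, -0.12 to 0.19 for Cry1, -0.17 to 0.70 for Nr1d1, -0.14 to 0.28 for Nr1d2 and -0.27 to 0.65 for Dbp. CYM-5478 minus vehicle ranged from -0.34 to 0.035 for Arntl, -0.10 to 0.36 for Npas2, -0.21 to 0.43 for Per2, -0.34 to 0.15 for Per3, -0.038 to 0.41 for Nr1d2 and -0.15 to 0.89 for Dbp. Cisplatin minus vehicle ranged from -0.020 to 0.40 for Arntl, -0.18 to 0.40 for Per2, -0.11 to 0.32 for Per3, -0.13 to 0.37 for Nr1d2 and -0.35 to 0.72 for Dbp. Nr1d1, which kept its sign, ranged from 0.45 to 1.21 for CYM-5478 minus vehicle and from 0.027 to 0.95 for cisplatin minus vehicle. The cause was not tested.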

Other observations

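Of the 19 tested genes of the glucocorticoid-responsive list, 2 rose and 0 fell for cisplatin against vehicle by limma's adjusted p under 0.05 (2.73% of all genes rose and 7.98% fell), 17 did not pass, and the median log2 difference was 0.40, against 0.02 over all genes. The 2 were Cdkn1a, a cell cycle inhibitor that is also a p53 target (0.93, SE 0.230, limma adjusted p = 0.0292), and Errfi1, an inhibitor of EGF receptor signalling (0.42, SE 0.105, limma adjusted p = 0.0308). Both calls are lost without cisplatin replicate 4, with title numbers 1 to 4 alone or with title numbers as a replicate block, where 0 of all genes passed. For CYM-5478 against cisplatin and against vehicle 0 of 19 passed (5.58% and 0% of all genes). Against cisplatin 1 had an unadjusted limma p under 0.05 (24.6% of all genes), and against vehicle 5 had one (5.79% of all genes).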
